A study of Mus musculus with 6 samples.

Results

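The genes described here encode the proteins of the mitochondrial ribosome. Members were the protein-coding genes whose GENCODE M21 symbol (mouse build mm10) starts with Mrpl or Mrps followed by a digit, matched by gene identifier. The rule found 78 genes among 54532 identifiers, 49 named for the large subunit and 29 named for the small subunit.

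The mitochondrial ribosome, or mitoribosome, translates the few mRNAs that are encoded by the mitochondrial genome, all of them for subunits of the respiratory chain and the ATP synthase. Its RNAs are transcribed from mitochondrial DNA, while every one of its proteins is encoded in the nucleus, made in the cytosol and imported. The small subunit reads the mRNA and the large subunit joins the amino acids. Many of the proteins have a counterpart in bacterial ribosomes, and the others are found in mitochondria alone.

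RNA was sequenced from immortalised bone marrow-derived macrophages (iBMDM), a mouse macrophage line that keeps dividing in culture. All cells carried a short hairpin RNA and had received interleukin-4 (IL-4) at 10 ng/ml for 24 h. In 3 libraries the hairpin targeted PGAM5, a phosphatase of mitochondria, and in 3 it targeted DRP1, the GTPase that divides mitochondria. No untreated library and no control hairpin is analysed here, so a gene that was higher in the PGAM5 knockdown was by the same measure lower in the DRP1 knockdown. The titles number the libraries of each knockdown 1 to 3 without saying whether these are separate cultures or separate hairpins. The spread behind every p-value may thus be technical. The libraries are called P1 to P3 (PGAM5 knockdown) and D1 to D3 (DRP1 knockdown) below.

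Levels are FPKM, the read count of a gene scaled to its exon length and to the library's depth, and errors are SD over 3 libraries. The depth fitted from the FPKM values was 16111281 to 21933547 per library. It is a scaling value, and the recovered reads of all genes summed to more than it in each library. Pgam5 was 3.50-fold lower in its own knockdown and Dnm1l, the gene of DRP1, 2.36-fold lower in its own. Of 10 macrophage markers 9 had a mean of at least 1 FPKM, Mertk was at 0 to 0.0130 FPKM, 5 fell in the PGAM5 knockdown, and the 10 summed to 3920 to 4084 FPKM there against 4984 to 5024. The part of this shift in the results below was not tested. Of 28 markers of fibroblasts, B cells, T cells, neutrophils, mast cells, epithelium and endothelium none reached a mean of 1 FPKM, with Epcam, Cd3e and Pdgfra at 0 in all 6 libraries.

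Promoters were compared first, since genes for mitochondrial proteins often carry sites for the ETS factor GABPA or for NRF1. RefSeq windows on GRCm38.p6 that reach from 250 bases before to 50 bases after the start were matched to 69 of the 78 genes. Each motif was searched on both strands and matches could overlap. The ETS letters CCGGAAG occurred in 34.8% of the member windows, 32.6% for the large and 38.5% for the small subunit, against 21.8% of the windows of 7590 tested protein-coding genes and 12.3% of all 16513 protein-coding windows. The NRF1 letters, in capitals for Mrpl9 below, occurred in 3 member windows, 4.35% against 2.46% of the tested genes and 1.38% of all windows. The YY1 letters, in capitals for Mrps11 below, occurred in 5, 7.25% against 2.07% and 1.03%. The GC box letters GGGCGG occurred in 49.3% of member windows, 67.7% of those of tested genes and 48.2% of all, and TATAAA in 5.80%, 6.14% and 12.9%. Among the 17 members called different between the knockdowns below that had a window, 5 held the ETS letters (29.4%), 1 the NRF1 letters and 1 the YY1 letters. These matches describe letters and show neither binding nor a cause. The 30 bases around each ETS, NRF1 or YY1 match in those called genes are given from RefSeq, 5′ to 3′ on the strand that reads the motif, with the motif in capitals.
Mrpl3, ETS, chr9:105053238-105053267, plus strand: tgagaaacggaCCGGAAGtggcccggctgt
Mrpl17, ETS, chr7:105811306-105811335, minus strand: gcatgctccgcCCGGAAGgcgcctcctcca
Mrpl43, ETS, chr19:45006480-45006509, minus strand: tcgcggtgactCCGGAAGcaaaactctcca
Mrpl43, ETS, chr19:45006436-45006465, minus strand: caaccccggaaCCGGAAGtcaccggttagt
Mrps21, ETS, chr3:95871479-95871508, plus strand: gtctctgcggaCCGGAAGcggaagctacgg
Mrps26, ETS, chr2:130563731-130563760, minus strand: ctgcgcccggcCCGGAAGtggccgcggagc
Mrpl9, NRF1, chr3:94443298-94443327, plus strand: aggcgcagctGCGCATGCGCggggtccttc
Mrps11, YY1, chr7:78783011-78783040, minus strand: gaagacagaAAGATGGCGGCgcccgtaggg

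Nearly all members were expressed. A filter at a mean of 1 FPKM over the 6 libraries left 77 of the 78 genes, 48 of the large and all 29 of the small subunit, and the lowest recovered count behind any of their values was 167 reads. Means ran from 2.63 to 78.8 FPKM in the large subunit with a median of 21.4, and from 3.59 to 51.1 in the small subunit with a median of 19.4. In the large subunit Mrpl34 (78.8 FPKM), Mrpl52 (78.0) and Mrpl2 (63.9), the counterpart of bacterial L2, led. In the small subunit Mrps21 (51.1), Mrps28 (49.1) and Mrps7 (44.6) led. Mrps28, the mitochondrial counterpart of bacterial S1 by current nomenclature, measured 49.7 ± 3.50 FPKM in the PGAM5 and 48.6 ± 1.12 in the DRP1 knockdown. The lowest tested levels were those of Mrpl33 (2.63 FPKM) in the large subunit, and Mrps35 (3.59) and Mrps25 (5.26) in the small subunit. Of the exonic bases of Mrps25, 69.8% overlap Nr2c2 on the other strand, and Gm42933 matches 34.1% of its longest transcript. Mrpl53 was listed at 0 in all 6 libraries. Exons of Ccdc142os and Gm42688 together cover 88.0% of its 790 exonic bases, and those on its own strand also cover 88.0%. These genes were listed at 0.0903 to 0.468 FPKM. The part of this overlap in the 0 was not tested.

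The order of levels among members followed the annotated length. FPKM divides by the length of all annotated exons of a gene, which for members ranged from 607 bases in Mrpl34 to 8631 in Mrps35. Across 77 genes, which are not independent replicates, the Spearman correlation of length with mean FPKM was -0.67 (-0.67 in the large and -0.70 in the small subunit). Mrpl33 has 7326 annotated exonic bases but 478 in its transcript with the longest coding sequence, and its level would be 40.3 in place of 2.63 if divided by the latter. For Mrpl13 the same change gave 45.2 in place of 6.97. With that divisor the correlation was -0.35. Levels of different members should therefore be compared with this limit, which does not touch the ratio of a gene between the knockdowns.

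**Figure D1:**
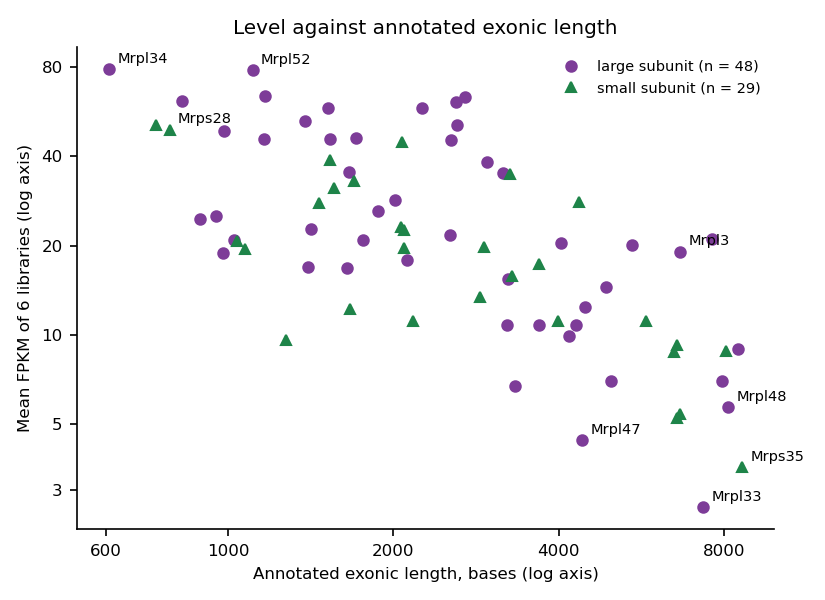
Mean FPKM of the 6 libraries (vertical, log axis) against annotated exonic length in bases (horizontal, log axis) for the 48 large and 29 small subunit genes tested, 1 point per gene. Genes with long annotated exons such as Mrpl33, Mrps35 and Mrpl48 lie at the lower right, and Mrpl34, with 607 bases, at the upper left.

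Large subunit genes were mostly slightly higher in the PGAM5 than in the DRP1 knockdown, with small differences. Of 48 tested, 10 rose, 2 fell and 36 did not pass limma at an adjusted p of 0.05. Over all 10634 tested genes 25.4% were called, 13.8% as higher and 11.7% as lower, so the 25% of large subunit genes called was near that background, with 20.8% higher and 4.17% lower. A separate fit took the 7154 genes with a mean of at least 5 FPKM, a level that most members exceed. In it 18.3% were higher and 14.1% lower, and 12 large subunit genes rose and 2 fell. The median difference of the 48 large subunit genes was 0.08 on the log2(FPKM + 1) scale. It was 0.01 for all tested genes and 0.02 for the 7154. Of the 48 differences 79.2% were above 0, against 52.3% over all tested genes. In bulk RNA, fewer cells of a type and less RNA per cell cannot be told apart. The groups did not overlap for 19 genes that were higher and 2 that were lower, against 23% and 20.5% of all tested genes. Summed over the 48 genes the level was 1430, 1462 and 1556 FPKM in P1 to P3 and 1399, 1375 and 1391 in D1 to D3, a ratio of 1.07. Of the counts of 10 that rose and 2 that fell, the first was 5 without D2.

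Small subunit genes had a like pattern. Of 29 tested, 8 rose, 1 fell and 20 did not pass, which is 27.6% and 3.45% against 13.8% and 11.7% of all tested genes. In the separate fit at 5 FPKM, 7 rose and 1 fell, beside 18.3% and 14.1% of its genes. Across the 29 the median log2 difference was 0.07, with 72.4% above 0. This median was 0.12 without P1, 0.03 without P3 and 0.12 with subunits assigned by structure. The groups did not overlap for 10 genes that were higher and 2 that were lower, where 23% and 20.5% of all tested genes did not. The summed level was 610.6, 619.3 and 654.9 FPKM against 588.6, 578.7 and 587.9, a ratio of 1.07. The ratio of the large to the small subunit sum was 2.36 ± 0.0171 in the PGAM5 and 2.37 ± 0.00598 in the DRP1 knockdown. The count of small subunit genes that rose was lower whichever library was left out, with 5 without P1, P2, P3 or D1, and 4 without D2 or D3. Over all tested genes the count that rose also fell, from 1464 to between 971 and 1458. The 1 that fell passed in neither fit without D2 or D3.

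**Figure D2:**
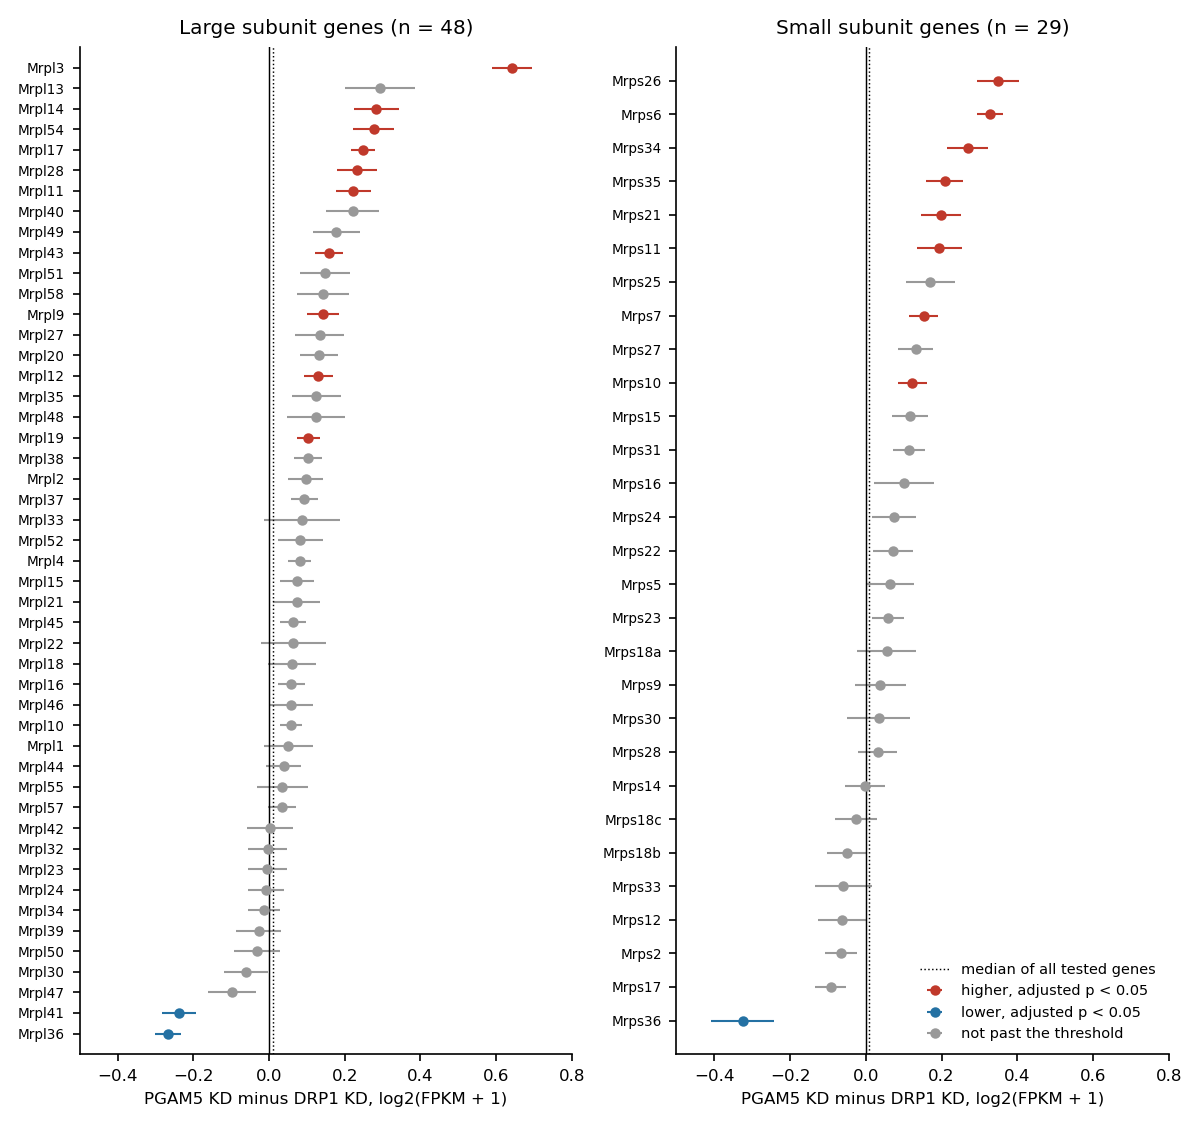
Difference in log2(FPKM + 1), PGAM5 less DRP1 knockdown (horizontal), for each tested large subunit gene (left) and small subunit gene (right), with the standard error of limma as bars. Coloured points passed an adjusted p of 0.05, and the dotted line marks the median of all tested genes at 0.01; Mrpl3 lies farthest to the right at 0.64.

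Some genes carry a name that does not match their place. In structures of the mammalian mitoribosome the products of Mrps30 and Mrps18a sit in the large subunit, and that of Mrps36 is also known as KGD4, a component of the 2-oxoglutarate dehydrogenase complex. Mrps30 measured 5.51 ± 0.642 FPKM in the PGAM5 and 5.34 ± 0.379 in the DRP1 knockdown and Mrps18a 17.8 ± 2.13 and 17.0 ± 0.243, and neither passed. Mrps36 was the 1 small subunit name that fell. With these genes placed by structure and 5 subunits under other names added, 10 of 51 large subunit genes rose and 2 fell, and 10 of 30 small subunit genes rose and 0 fell. The shares that rose were 19.6% and 33.3%, beside 13.8% of all tested genes. The large subunit share that fell was 3.92%, beside 11.7%.

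Mrpl3 had the largest difference of all members. Its product is the counterpart of bacterial L3, a protein of the large subunit core near the site where peptide bonds form, and its promoter holds the ETS letters shown above. The gene (ENSMUSG00000032563) spans chromosome 9, 105053239 to 105079888, plus strand. Levels were 23.1, 22.1 and 25.2 FPKM in P1 to P3, and 14.5, 15.2 and 14.3 in D1 to D3. Every PGAM5 knockdown library lay above every DRP1 knockdown library. Mrpl3 rose 1.60-fold (means 23.5 ± 1.56 and 14.7 ± 0.472 FPKM; limma log2 difference 0.64, SE 0.052, adjusted p = 0.00024), and the exact permutation p was 0.1, the smallest that 3 libraries against 3 allow. Among tested genes near it, Atp2c1 was called higher (0.13) and Acad11, Dnajc13, Nudt16 and Aste1 were not, with differences of -0.02 to 0.07.

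Other large subunit genes with a bacterial counterpart moved less. Mrpl17 rose 1.20-fold, from 19.0, 19.0 and 19.6 FPKM in the DRP1 knockdown to 22.7, 22.8 and 23.5 (log2 difference 0.25, limma adjusted p = 0.0019). Mrpl14 rose 1.23-fold, with 26.6, 26.9 and 29.9 FPKM against 24.0, 22.6 and 21.3 (0.28, adjusted p = 0.012). The groups did not overlap for either gene, and P3 was the highest for both. Mrpl28 measured 55.8, 54.9 and 59.8 FPKM against 46.6, 46.5 and 51.6 (log2 difference 0.23, adjusted p = 0.016), which no longer passed without D1 (adjusted p = 0.062) or D2 (0.063). Mrpl9, whose promoter holds the NRF1 letters, and Mrpl19 rose 1.11-fold and 1.08-fold. Mrpl9 no longer passed without P2 (adjusted p = 0.069), D1 (0.119), D2 (0.129) or D3 (0.096), nor Mrpl19 without any 1 of the 6 libraries (0.058 to 0.139). Of the exonic bases of Mrpl19, 36.0% overlap Gcfc2 on the other strand. By list, 8 of 30 large subunit genes with a bacterial counterpart rose and 1 fell, beside 13.8% and 11.7% of all tested genes.

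Mrpl36 was the large subunit gene that fell most. Its product is the counterpart of L36, the smallest protein of the bacterial large subunit. The 6 values were 41.7, 40.7 and 41.8 FPKM in the PGAM5 and 48.0, 50.4 and 51.7 in the DRP1 knockdown. Values of the groups did not overlap, and the fall was 1.21-fold (means 41.4 ± 0.626 and 50.03 ± 1.88 FPKM; limma log2 difference -0.27, SE 0.035, adjusted p = 0.0020). Its start lies 29 bases from that of Ndufs6, a complex I gene on the other strand, which measured 31.2 ± 3.75 and 33.0 ± 2.00 FPKM and did not pass.

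Of 18 tested large subunit genes found in mitochondria alone, 2 rose and 1 fell, which is 11.1% and 5.56% beside the same 13.8% and 11.7%. Mrpl41, whose product has also been studied as a binding partner of the apoptosis regulator BCL2, fell from 26.2, 28.5 and 25.4 FPKM in the DRP1 knockdown to 22.3, 22.8 and 22.3 (1.19-fold, log2 difference -0.24, limma adjusted p = 0.0088). The gene Gm6434 matches 47.9% of its longest transcript at 97% identity or more, so reads may be shared. Mrpl54 rose 1.22-fold, with 64.55, 64.96 and 73.3 FPKM against 57.6, 54.4 and 54.7 (0.28, adjusted p = 0.0095). Mrpl43 measured 61.6 ± 2.62 against 55.0 ± 1.01 FPKM (0.16, adjusted p = 0.020) and did not pass without D1 (0.072) or D2 (0.075), and 33.4% of its exonic bases overlap Twnk, the gene of the mitochondrial DNA helicase. Of the highest members that did not pass, Mrpl52 measured 80.3 ± 5.41 and 75.7 ± 4.33 FPKM. Mrpl34, which has a bacterial counterpart, measured 78.4 ± 1.55 and 79.2 ± 4.11. Mrpl40 had a log2 difference of 0.22, and Mrpl13, which also has a bacterial counterpart, of 0.29. Neither passed, and both were singled out after their values were seen.

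The stalk of the large subunit is where translation factors dock. Of its 4 tested genes Mrpl54, Mrpl11 and Mrpl12 rose, against 13.8% of all tested genes, and Mrpl10 did not pass (log2 difference 0.06). The median was 0.18, and of the 3 calls that of Mrpl54 alone held whichever single library was left out. Mrpl11, the counterpart of L11 at the base of the stalk, measured 15.9, 16.8 and 17.45 FPKM against 14.8, 13.9 and 13.8 (log2 difference 0.22, limma adjusted p = 0.012) and did not pass without D3 (0.051). Mrpl12, the counterpart of the L7/L12 protein that draws in translation factors, measured 47.8 ± 2.00 against 43.5 ± 1.08 FPKM (0.13, adjusted p = 0.047). It did not pass without P1 (0.104), P3 (0.082), D1 (0.147), D2 (0.115) or D3 (0.081). Of 7 genes around the exit of the peptide tunnel 0 rose and 0 fell, with a median of -0.00, and of 7 genes of the central protuberance 0 rose and 0 fell, with a median of 0.10. These regional lists are small, and the difference between them was not tested.

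Mrps26 and Mrps6 were the small subunit genes that rose most. Mrps26, a protein of mitochondria alone, measured 29.5, 31.1 and 34.2 FPKM in the PGAM5 and 25.2, 24.4 and 24.1 in the DRP1 knockdown. It rose 1.29-fold (log2 difference 0.35, SE 0.054, limma adjusted p = 0.0040). The ETS letters shown above lie just before its RefSeq start at 130563757, but after its GENCODE start at 130563742. Mrps6, the counterpart of bacterial S6, measured 42.6, 42.8 and 45.02 FPKM against 34.1, 35 and 34.1. No values overlapped between the groups, and Mrps6 rose 1.26-fold (log2 difference 0.33, SE 0.033, limma adjusted p = 0.00061). Exons of Slc5a3 and Gm49711 overlap 19.9% of its bases, and Slc5a3 did not pass (0.12).

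Mrps34, whose protein is found in mitochondria alone and is needed for a stable small subunit, rose 1.21-fold, with 25.8, 25.5 and 24.7 FPKM against 21.6, 21.9 and 19.2 (log2 difference 0.27, limma adjusted p = 0.010). Exons of Mapk8ip3 and Nme3 cover 77.8% of its bases, and whether strand was kept in these libraries is not known here. Exons on its own strand cover 37.0%, which keeping strand would not resolve. Mapk8ip3 stood at 2.75 and 2.91 FPKM and did not pass, and Nme3 was listed at 0. Mrps35 measured 3.89, 3.97 and 3.90 FPKM against 3.38, 3.19 and 3.20 (0.21, adjusted p = 0.020), which did not overlap, but did not pass without P2 (0.062), D2 (0.073) or D3 (0.072).

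The other small subunit genes that rose have a bacterial counterpart. Mrps21 measured 53.0, 51.7 and 59.3 FPKM against 47.1, 46.3 and 48.9 (0.20, limma adjusted p = 0.032), and did not pass without D1 (0.095), D2 (0.107) or D3 (0.060), and Gm6181 matches 54.1% of its longest transcript. Mrps7, which belongs to the head of the subunit, measured 46.99 ± 1.84 against 42.2 ± 1.12 FPKM (0.15, adjusted p = 0.025) and did not pass without P1 (0.069), P3 (0.051), D2 (0.092) or D3 (0.088). Mrps11 (0.19, adjusted p = 0.049) and Mrps10 (0.12, adjusted p = 0.049) lay at the threshold, and each lost its call without any 1 of the 6 libraries (0.065 to 0.119 and 0.066 to 0.130). By list, 5 of 16 small subunit genes with a bacterial counterpart rose and 0 fell, and 3 of 10 found in mitochondria alone rose and 0 fell, beside 13.8% and 11.7% of all tested genes.

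Mrps36 measured 7.38, 9.04 and 8.87 FPKM in the PGAM5 and 9.89, 11.0 and 11.5 in the DRP1 knockdown. All 3 DRP1 knockdown values lay above all 3 others, the first library was the lowest of each group, and Mrps36 fell 1.28-fold (log2 difference -0.32, SE 0.083, limma adjusted p = 0.027). It did not pass without D2 (0.085) or D3 (0.092). The pseudogenes Mrps36-ps1 and Mrps36-ps2 match 44.1% of its longest transcript, and they were listed at 0.298 to 2.02 and 0.198 to 1.06 FPKM.

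**Figure D3:**
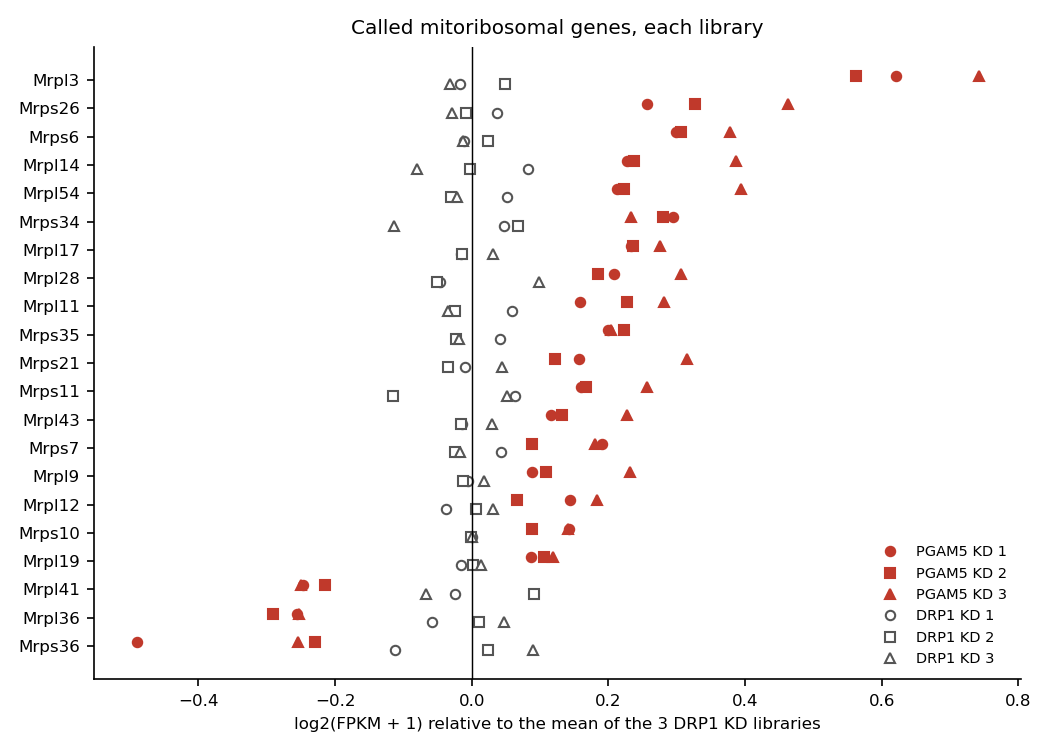
Level of each of the 21 called members in each library, as log2(FPKM + 1) minus the mean of the 3 DRP1 knockdown libraries (horizontal). Filled red symbols are PGAM5 and open symbols DRP1 knockdown libraries, and the filled triangle of P3 is often farthest to the right among genes that rose.

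Library P3 stood above the others for most members. It held the highest of the 6 values in 55 of the 77 tested genes (71.4%), 40 of 48 in the large and 15 of 29 in the small subunit, whereas it was highest for 26.1% of all tested genes. The same library was highest for 76.9% of 78 tested genes of cytosolic ribosomal proteins and 63.9% of 36 tested complex I genes. Relative to the DRP1 knockdown, the median large subunit gene was at 0.02, 0.09 and 0.15 in P1 to P3 on the log2(FPKM + 1) scale, and the median small subunit gene at 0.05, 0.07 and 0.14, while the median of all tested genes was at 0.01, 0.00 and 0.02. Without P3, 8 large subunit genes rose and 2 fell with a median of 0.06, and 5 small subunit genes rose and 1 fell with a median of 0.03. P1 and P2 both lay above every DRP1 knockdown library in 29 of the 77 members (37.7%), against 28.2% of all tested genes. What sets P3 apart was not tested.

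**Figure D4:**
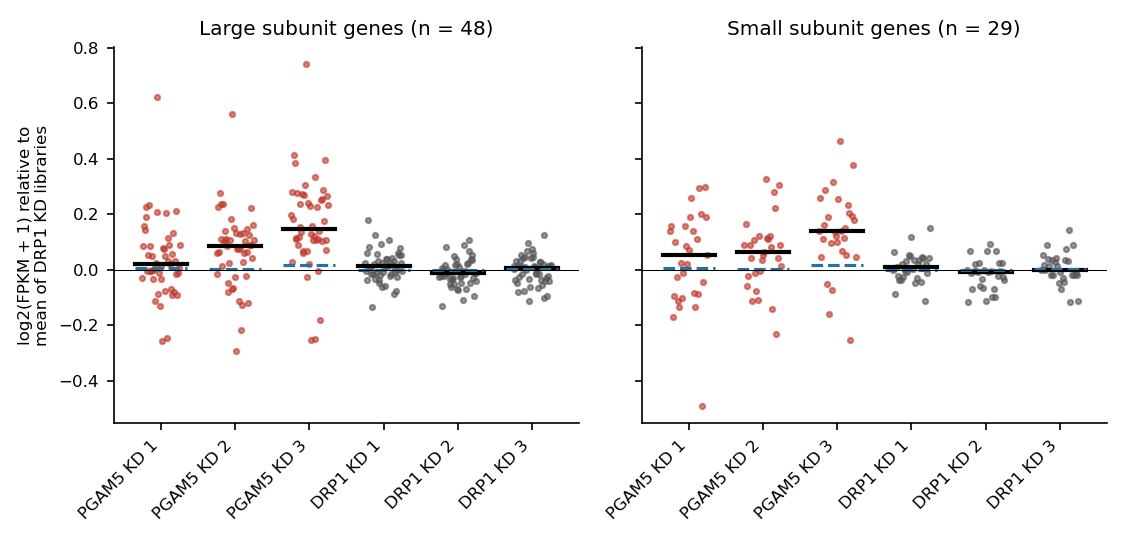
Level of every tested member in each library, as log2(FPKM + 1) minus the mean of the DRP1 knockdown libraries (vertical), for large subunit (left) and small subunit genes (right), 1 point per gene. Black bars are medians of the members and dashed blue lines medians of all tested genes; the member medians are 0.15 and 0.14 in P3.

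The genes of cytosolic ribosomal proteins, which translate nuclear messages, and of complex I, which holds subunits made by the mitoribosome, had median log2 differences of 0.10 and 0.08. Of the 78 cytosolic genes tested 17 rose and 1 fell, which is 21.8% and 1.28% beside 13.8% and 11.7% of all tested genes. Of the 36 complex I genes 4 rose (11.1%, below the 13.8% of all tested genes) and 0 fell. No difference between these sets and the members was tested.

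Member genes often lay head to head with a neighbour. For 33 of 78 (42.3%) the start was within 1000 bases of that of a protein-coding gene on the other strand, against 18.8% of 9451 tested protein-coding genes. Of the partners 27 were tested, and 5 were called higher and 1 lower, beside 13.8% and 11.7% of all tested genes. The partners called higher include Mrps11, itself a member. Both genes of a pair were called, in the same direction, in 2 cases. Mrpl54 and Apba3, 26 bases apart, rose together, Apba3 from 21.4 ± 0.455 to 27.8 ± 1.28 FPKM (log2 difference 0.36, limma adjusted p = 0.00095). Mrpl41 and Pnpla7 fell together, the latter from 18.5 ± 0.323 to 15.3 ± 0.0841 FPKM (-0.26, adjusted p = 0.0013). Mrpl46 and Mrps11 share a start region of 412 bases, and Mrpl46 did not pass (0.06). These pairs were singled out after their values were seen, and reads of the 2 strands cannot be told apart where strand was not kept.

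The rRNAs that the members bind ran the other way. mt-Rnr1, the small subunit rRNA, measured 62.0, 62.2 and 69.1 FPKM in the PGAM5 and 106.5, 106 and 110.4 in the DRP1 knockdown. mt-Rnr2, the large subunit rRNA, measured 29.03, 29.9 and 33.5 FPKM against 44.96, 45.07 and 45.04. Neither overlapped between the groups, and they fell 1.67-fold (log2 difference -0.73, limma adjusted p = 7.4e-05) and 1.46-fold (-0.54, adjusted p = 0.00052). Poly-A capture made these libraries, and the values count only the rRNA caught that way. Of 12 tested mRNAs of the mitochondrial genome, which the mitoribosome translates, 0 rose and 8 fell (66.7%). Their means ran from 1.17 FPKM for mt-Nd3, near the filter but called lower, to 1587 for mt-Co1. mt-Atp6, which did not pass, measured 7.57, 8.39 and 73.8 FPKM in D1 to D3. Matches to other genes were not searched for these transcripts. Over all tested genes 13.8% were called higher and 11.7% lower.

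Of the 5 subunits under other names 2 rose, 0 fell and 3 did not pass, with a median of 0.18. This stands beside 13.8% of all tested genes called higher and 11.7% lower. Dap3, a GTP-binding protein of the small subunit, measured 19.9, 20.4 and 21.2 FPKM against 17.2, 17.02 and 18.05 (log2 difference 0.22, limma adjusted p = 0.0063). Ptcd3, a small subunit protein with RNA-binding repeats, measured 16.0 ± 0.231 against 14.0 ± 0.496 FPKM (0.18, adjusted p = 0.012) and did not pass without D2 (0.0501). Chchd1, Aurkaip1 and Gadd45gip1 did not pass, with differences of 0.17, 0.16 and 0.22.

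Few genes that build the mitoribosome or work with it passed, and whether their shares differ from the background of 25.4% was not tested. Of 28 tested assembly and rRNA modification factors 3 rose and 0 fell: the ribosome binding factor Rbfa (24.7 ± 0.384 against 20.97 ± 1.35 FPKM, log2 difference 0.23, limma adjusted p = 0.014), the RNA granule protein Grsf1 (0.18) and the helicase Ddx28 (0.17). Of 16 translation factors 1 rose, the elongation factor Tufm (38.3 ± 0.905 against 35.3 ± 0.769 FPKM, log2 difference 0.12, adjusted p = 0.036), which did not pass without P1 (0.093), P3 (0.052), D1 (0.118), D2 (0.119) or D3 (0.058). Of 22 genes of aminoacyl-tRNA synthesis 3 rose and 1 fell. Fars2, the mitochondrial phenylalanine enzyme, rose 1.41-fold, with 7.33, 7.38 and 7.43 FPKM against 5.45, 5.155 and 5.08 (log2 difference 0.43, SE 0.043, limma adjusted p = 0.00061). Gars, the glycine enzyme of both the cytosol and mitochondria, rose 1.19-fold (285.6 ± 5.31 against 239.9 ± 0.824 FPKM). Wars2, the tryptophan enzyme, fell (-0.18, adjusted p = 0.043) but did not pass without P1 (0.066), P2 (0.119), P3 (0.073), D1 (0.116) or D3 (0.137). Of 15 tRNA and transcript processing genes 3 rose and 0 fell. These were Hsd17b10, a subunit of mitochondrial RNase P (0.25), Trit1, a tRNA modifying enzyme (0.21), and the RNA degrading enzyme Pnpt1 (0.15). By limma adjusted p, Pnpt1 did not pass without P1 (0.062), D1 (0.071) or D3 (0.088). Trit1 did not pass without P2 (0.120), P3 (0.105), D1 (0.125), D2 (0.077) or D3 (0.070).

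**Figure D5:**
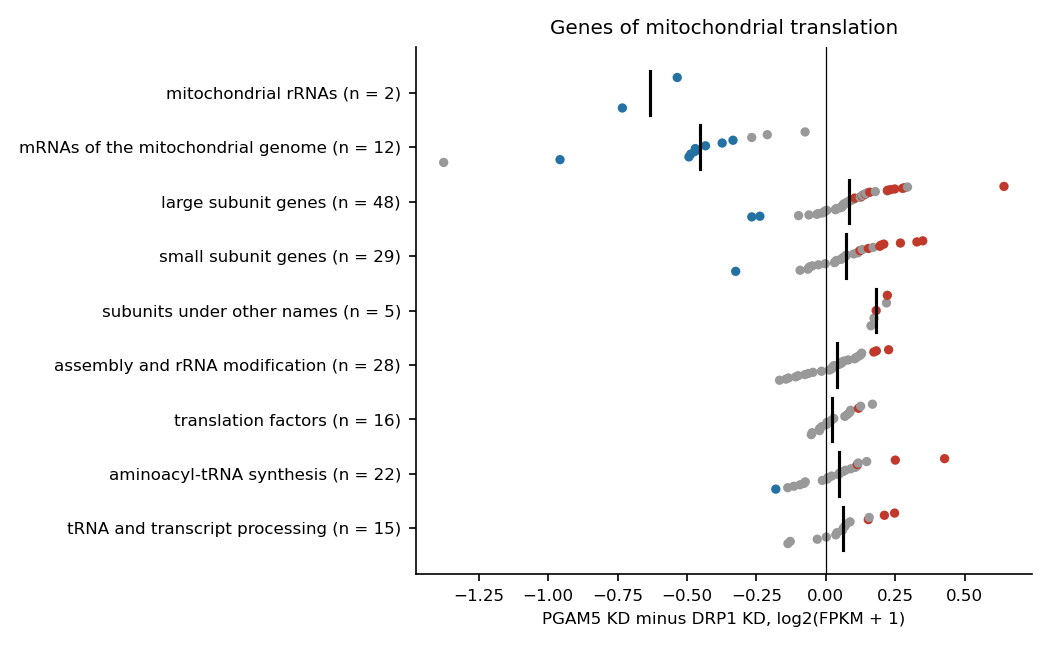
Difference in log2(FPKM + 1), PGAM5 less DRP1 knockdown (horizontal), for every tested gene of 9 groups of mitochondrial translation (vertical), with called genes in red (higher) or blue (lower), others in grey, and medians as black bars. The 2 mitochondrial rRNAs and the mRNAs of the mitochondrial genome lie to the left of 0, and the medians of the 2 groups of Mrpl and Mrps genes at 0.08 and 0.07.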

How the data were processed

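The authors deposited 1 table per library with FPKM for 54532 gene identifiers. HISAT2 2.0.5, featureCounts 1.5.0-p3 and build mm10 appear in the submitters' processing notes. No source used here gives the annotation release, the FPKM formula or the strand setting. GENCODE M21 gave symbols, coordinates and exonic lengths for 54409 identifiers and left 123 unmatched. Multiplying FPKM by exonic length and 1 fitted depth for each library gave whole reads, to a tolerance of 0.02, for 96.1% of values above 0. Reads served for description and 1 alternative.

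Genes with a mean of at least 1 FPKM (10634) were tested by limma 3.58.1 (R 4.3.3, mean-variance trend, two-sided) after a log2(FPKM + 1) transform, and p-values were Benjamini-Hochberg adjusted over all of them. Differences are PGAM5 minus DRP1 knockdown, a scale that understates changes of low genes; folds are ratios of mean FPKM. The members and lists were chosen with earlier results of these data known. Named members were the called ones (up to 8 with the largest differences per subunit, the rest added after their values were seen), the 3 highest and 2 lowest per subunit, and up to 3 called per pathway list. Correlations of log2 values were 0.993 to 0.995 within groups and 0.986 to 0.988 between. Sequence matches used blastn 2.17.0 at 97% identity over at least 100 bases. In simulated data for this comparison on 10616 genes, 40% of genes changed 1.25-fold and 76% of those changed 1.5-fold were recovered. Recovery was 2% at 1.1-fold. The simulation changed 50 genes at each fold and gave 109 calls, against 2704 in the data. With so few calls the adjusted p is stricter, so these shares need not hold for the data. Alternatives changed the pseudocount, filter, scaling, variance trend, test, block, subunit assignment or libraries.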

Additional observations from a re-analysis of the deposited data

How the results depend on the processing

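Of the 21 called members 9 kept their call and direction under all 15 alternatives run for each (Mrpl3, Mrpl14, Mrpl17, Mrpl36, Mrpl41, Mrpl54, Mrps6, Mrps26 and Mrps34), and 12 lost the call under at least 1 but reversed under none. Small subunit genes that rose numbered 3 with no expression filter and 5 with the replicate block, against 8, and 4 to 5 when 1 library was left out. The 1 that fell became 0 with no filter or with subunits assigned by structure, and 0 to 1 when 1 library was left out. Large subunit genes that rose numbered 5 to 12 when 1 library was left out, with 5 without DRP1 knockdown library 2. Over all genes, 971 to 1458 rose and 825 to 1280 fell when 1 library was left out. Log2 differences near 0 changed sign in members that passed no test. Leaving out 1 library at a time, Mrpl34 ranged from -0.048 to 0.025, Mrps18a from -0.013 to 0.149, Mrps28 from -0.0082 to 0.088 and Mrps30 from -0.014 to 0.119, and quantile normalization gave -0.0061 for Mrps28. The cause was not tested. Deviations of same-numbered libraries correlated at -0.00034 to 0.031, and those of other pairs at -0.068 to 0.041. With 3 libraries per group, values so near 0 cannot show whether the replicate numbers pair the libraries. With quantile normalization the medians of the large and small subunit were 0.06 and 0.05.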
